A study of Homo sapiens with 6 samples.

Results

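Transcripts of 10 prostate secreted and surface protein genes (KLK2, KLK3, KLK4, TMPRSS2, SLC45A3, ACPP, STEAP1, STEAP2, FOLH1 and TRPM8) were compared between CDKI-73-treated and DMSO-treated LNCaP cells. The genes were listed by name, as products that prostate epithelium secretes or carries on its membranes. The rule that selects them uses no measured value, but they were chosen with earlier results of these data known. All 10 were among the 29744 genes of the deposited table, and all 10 were among the 13373 genes with a mean of at least 0.5 CPM (reads of a gene scaled to a common library total) that entered the test. LNCaP is an androgen-responsive human prostate carcinoma line, and the samples of both groups are cultures of this single line in RPMI-1640 with 10% FBS. The treated cultures received CDKI-73 at 250 nM for 4 h (n = 3) and the vehicle cultures received DMSO for the same time (n = 3), with no added androgen or hormone depletion stated. CDKI-73 is a kinase inhibitor whose targets include CDK9, the kinase that releases paused RNA polymerase II into elongation. Poly(A) RNA was sequenced as single 75 bp reads from a stranded library. CDKI-73 also stands in the sample titles of the DMSO group, so that its assignment to vehicle, and with it each direction below, depends on the treatment field of the labels.

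The secreted members are products of the luminal epithelial cell, the cell type from which most prostate carcinomas arise. KLK3 encodes prostate-specific antigen, a serine protease that liquefies the seminal clot, KLK2 and KLK4 are related kallikrein proteases of the same chromosomal cluster, and ACPP encodes prostatic acid phosphatase. The membrane members include a protease (TMPRSS2), a glutamate carboxypeptidase used as an imaging and therapy target under the name PSMA (FOLH1), a metalloreductase and its relative (STEAP2 and STEAP1), a solute carrier also called prostein (SLC45A3) and a cation channel gated by cold and menthol (TRPM8). Many of them are known to be induced by androgen, KLK3 being a common reporter of that response, and TMPRSS2 and SLC45A3 are recurrent 5′ partners of ETS gene fusions in prostate tumours. FOLH1 is an exception, known to be repressed by androgen in LNCaP cells.

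The members lie on 7 chromosomes (hg38, GENCODE release 44). KLK3 (chr19:50854915-50860764, plus strand, 5 exons) is followed after 804 bp by KLK2 (chr19:50861568-50880567, plus strand, 5 exons), and KLK4 (chr19:50906351-50911395, minus strand, 6 exons) lies further along the cluster. STEAP1 (chr7:90154456-90164829, plus strand, 5 exons) and STEAP2 (chr7:90167590-90238137, plus strand, 6 exons) are neighbours with a gap of 2761 bp. Both gaps are between GENCODE spans. The remaining genes share their chromosome with no other member, namely TMPRSS2 (chr21:41464300-41531116, minus strand, 14 exons), SLC45A3 (chr1:205657851-205680509, minus strand, 5 exons), ACPP, annotated as ACP3 (chr3:132317369-132368302, plus strand, 10 exons), FOLH1 (chr11:49145092-49208638, minus strand, 19 exons) and TRPM8 (chr2:233917373-234019522, plus strand, 26 exons). Exon numbers are those of the MANE Select transcript.

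RefSeq (GRCh38.p14) gave the 250 bases before the annotated start for 8 of the 10 members, with no entry for TMPRSS2 and FOLH1. The KLK3 and KLK2 stretches are shown because these adjacent genes have closely related promoters and moved differently. Capitals mark a 15-base stretch that holds the androgen response element known in both promoters, and the TTTATA that serves as their TATA box. KLK3 is chr19:50854665-50854914 and KLK2 is chr19:50873189-50873438, both on the plus strand, and the KLK2 start used by RefSeq lies inside the longer GENCODE span.
KLK3: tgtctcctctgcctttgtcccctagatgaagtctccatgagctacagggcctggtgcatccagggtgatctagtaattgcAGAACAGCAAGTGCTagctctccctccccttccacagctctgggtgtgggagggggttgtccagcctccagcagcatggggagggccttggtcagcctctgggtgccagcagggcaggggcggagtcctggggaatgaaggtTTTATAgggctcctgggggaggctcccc
KLK2: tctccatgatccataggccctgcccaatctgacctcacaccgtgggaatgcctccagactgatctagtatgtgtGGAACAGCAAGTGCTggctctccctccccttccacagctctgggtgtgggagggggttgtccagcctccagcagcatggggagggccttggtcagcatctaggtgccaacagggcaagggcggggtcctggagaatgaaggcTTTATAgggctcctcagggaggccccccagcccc
Of 238 aligned bases, 205 were identical (86.1%). The last 14 bases of the marked stretch, GAACAGCAAGTGCT, were the same in both genes and began 169 bases before the start in KLK3 and 175 bases before it in KLK2. Of 27305 RefSeq promoters searched on both strands, 2 held these letters (0.00732%), those of KLK3 and KLK2. AGAACA, a half-site that overlaps these letters, was matched in KLK3 at 170 bases before the start and not in KLK2. It was held by 12.4% of all promoters and 7.21% of those of the genes tested. The TATAAA motif read on the reverse strand (TTTATA) began 28 bases before the start in KLK3 and 34 bases before it in KLK2. On either strand, 11.2% of all promoters and 5.09% of those of the genes tested matched it.

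SLC45A3 (chr1:205680510-205680759, minus strand) and TRPM8 (chr2:233917123-233917372, plus strand) are shown for their difference in CpG dinucleotides, which are in capitals together with the TATAAA of TRPM8.
SLC45A3: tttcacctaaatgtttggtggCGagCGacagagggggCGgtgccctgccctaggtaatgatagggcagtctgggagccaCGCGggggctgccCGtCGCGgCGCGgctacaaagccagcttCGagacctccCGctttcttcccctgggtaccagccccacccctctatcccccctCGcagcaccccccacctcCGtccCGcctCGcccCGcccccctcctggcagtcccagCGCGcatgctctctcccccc
TRPM8: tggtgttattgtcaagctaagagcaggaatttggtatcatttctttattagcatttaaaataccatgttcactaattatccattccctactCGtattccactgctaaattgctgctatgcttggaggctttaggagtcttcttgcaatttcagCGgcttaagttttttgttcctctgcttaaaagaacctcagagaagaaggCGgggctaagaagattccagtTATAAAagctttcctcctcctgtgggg
The SLC45A3 stretch held 19 CpG and no TATAAA match, and the TRPM8 stretch held 3 CpG and a TATAAA match 27 bases before the start. STEAP1 and STEAP2 resembled SLC45A3, with 21 CpG each and no TATAAA match. The STEAP2 stretch (chr7:90211490-90211739) lies inside the longer GENCODE span of that gene. KLK2 and ACPP (2 CpG each) and KLK3 and KLK4 (1 CpG each) resembled TRPM8 in CpG number. The median was 10 over all promoters and 21 over those of the genes tested.

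The CPM steps give a depth of 46.1 to 52.0 M counted reads in CDKI-73 samples and 52.9 to 60.9 M in DMSO samples. The least covered member value was TRPM8 at 2465 reads, for which counting error alone is 2.01%. For TRPM8 this was no smaller than the spread between samples (CV 1.2% with CDKI-73 and 1.4% with DMSO). The 5 luminal markers KRT8, KRT18, KRT19, EPCAM and HOXB13 were all detected at a mean of at least 0.5 CPM, with a summed level of 970 to 1062 CPM in CDKI-73 samples and 1034 to 1075 CPM in DMSO samples. The 22 markers of other cell types that were examined had far lower sums. With CDKI-73, COL1A1 (12.8 to 14.9 CPM), ENO2 (11.2 to 13.8) and VWF (10.0 to 11.9) were nonetheless near KRT19 (10.1 to 12.1), the lowest luminal marker. The summed levels were 1.14 to 1.39 CPM with CDKI-73 and 0.54 to 1.21 CPM with DMSO for basal markers, and 16.9 to 19.1 CPM with CDKI-73 and 12.0 to 12.7 CPM with DMSO for stromal markers. Immune markers summed to 6.36 to 7.37 CPM with CDKI-73 and 4.89 to 5.64 CPM with DMSO, endothelial markers to 10.0 to 11.9 CPM with CDKI-73 and 10.0 to 10.1 CPM with DMSO, and neuroendocrine markers to 13.9 to 16.5 CPM with CDKI-73 and 11.1 to 11.9 CPM with DMSO. Their part in the results was not tested. Replicate 3 of CDKI-73 stood apart, at a distance (the median absolute log2 difference over genes) of 0.148 and 0.159 from the other CDKI-73 samples, which were 0.065 from each other, and the DMSO samples were 0.061 to 0.093 apart.

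KLK3 was the most abundant member in every sample. Per kilobase of the MANE Select transcript, the mean level of KLK3 was 2089 CPM in CDKI-73 cells and 1772 CPM in DMSO cells. In DMSO cells STEAP1 (305), FOLH1 (283), TMPRSS2 (222) and STEAP2 (195 CPM per kilobase) came next, without overlap between neighbours. SLC45A3 (82.1), KLK2 (77.2) and KLK4 (75.1) followed, and neighbours among these overlapped over samples, with ACPP (64.3) and TRPM8 (8.37) below them. In CDKI-73 cells the order after KLK3 was FOLH1 (348), STEAP1 (288), STEAP2 (147), TMPRSS2 (92.9), KLK4 (88.2), ACPP (70.3), KLK2 (67.5), SLC45A3 (50.8) and TRPM8 (10.4 CPM per kilobase). There TMPRSS2 overlapped with KLK4, and ACPP with KLK2. The 10 genes together took 0.692%, 0.682% and 0.713% of the counted reads in the CDKI-73 samples and 0.729%, 0.703% and 0.701% in the DMSO samples, so their summed share overlapped between groups. Within this sum KLK3 made up 43.9% ± 2.55 in CDKI-73 cells and 36.5% ± 1.51 in DMSO cells (SD, n = 3 each).

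**Figure D1:**
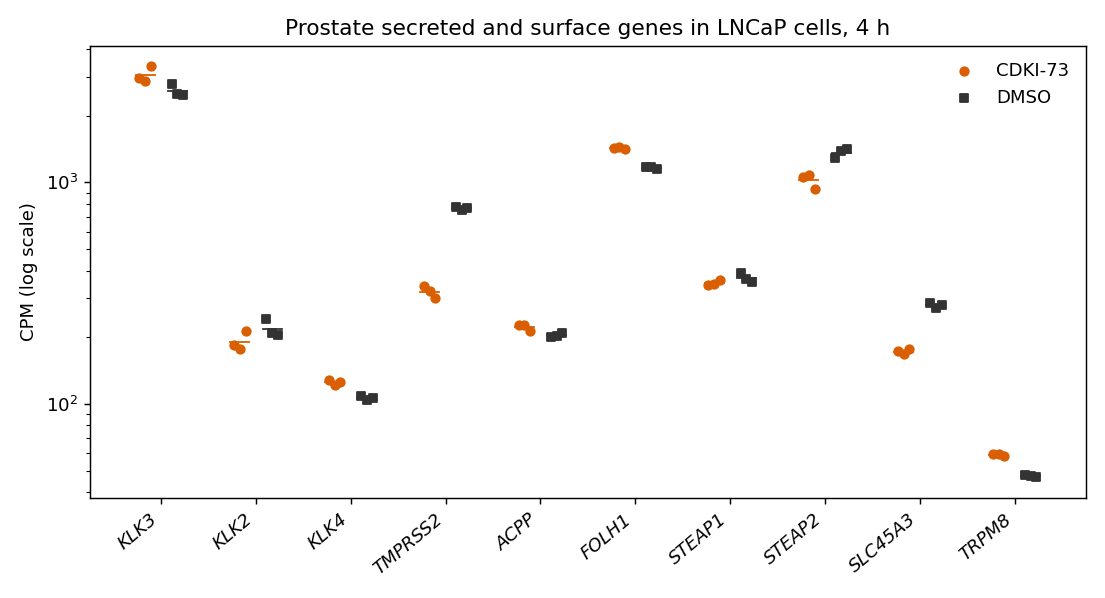
CPM on a log scale of the 10 genes in each sample, with CDKI-73 (circles) left of DMSO (squares), and lines at the means of 3 samples. TMPRSS2, SLC45A3 and STEAP2 lie lower with CDKI-73, KLK3, KLK4, ACPP, FOLH1 and TRPM8 lie higher on the CPM as deposited (below 0 in log2 fold change with the reference genes for the last 5), and the samples of the groups overlap for KLK2 and STEAP1.

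After 4 h of CDKI-73 the members did not move as a block. On the CPM as deposited, TMPRSS2, SLC45A3 and STEAP2 fell, KLK3, KLK4, ACPP, FOLH1 and TRPM8 rose by at most 24.4%, and KLK2 and STEAP1 did not pass the test (limma on log2(CPM + 0.1), Benjamini-Hochberg adjusted p of 0.05 or less over all genes tested). The counts were 3 lower and 5 higher of 10, against 48.2% lower and 24.2% higher of all genes tested, so that 8 of 10 passed in either direction, against 72.4%. TMPRSS2 alone fell at least 2-fold, as did 22.3% of all genes, and no member rose that far, as 1.11% of all genes did. The samples of the groups did not overlap for 8 members, against 75.9% of all genes. The median log2 fold change was 0.02 for the members and -0.18 for all genes. Most members are abundant, and the 2261 genes with a mean of at least 100 CPM had a median of 0.11, with 27.7% lower and 46.7% higher. The 9 members above that level had a median of -0.08, with 3 lower and 4 higher. In bulk RNA, fewer cells and less RNA per cell cannot be told apart, and CPM gives a gene's share of the reads and not its amount per cell.

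The size of the small changes depended on what the libraries were scaled to. Relative to the deposited CPM, the median of all genes moved by 0.16 on the log2 scale with TMM factors, 0.18 with the median of gene ratios and 0.50 with the upper quartile, and by -0.41 when GAPDH, HPRT1 and ACTB, the reference genes of the study's qRT-PCR, were held level. These reference genes had themselves risen in CPM, by a log2 fold change of 0.55 (GAPDH), 0.32 (HPRT1) and 0.36 (ACTB; adjusted p at most 8.6e-04 for each). TMPRSS2 and SLC45A3 stayed lower under all 4 other scalings, STEAP2 under 3 of the 4. The 5 risen members stayed higher under 3 scalings and had negative values with the reference genes.

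**Figure D2:**
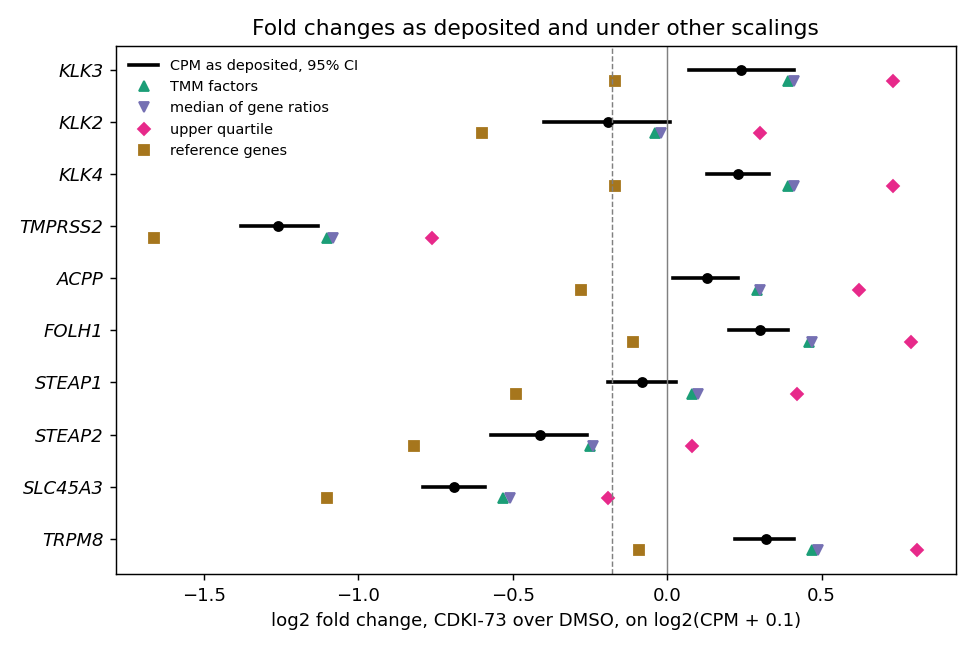
Log2 fold change of CDKI-73 over DMSO for the 10 genes, as points with 95% confidence intervals for the CPM as deposited (n = 3 each) and as symbols for 4 other scalings, with a dashed line at the median of all genes tested (-0.18). TMPRSS2 and SLC45A3 lie below 0 under every scaling shown, while KLK3, KLK4, ACPP, FOLH1 and TRPM8 lie above 0 except with the reference genes.

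**Figure D3:**
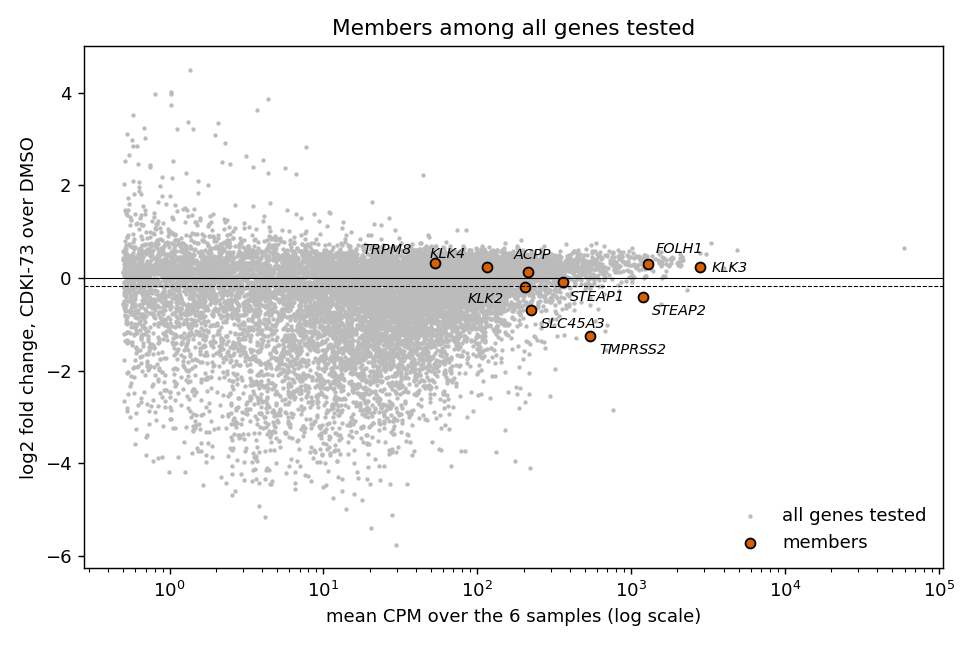
Log2 fold change of CDKI-73 over DMSO against mean CPM on a log scale for the 13373 genes tested (grey) and the 10 members (orange), with a dashed line at the median of all genes (-0.18). TMPRSS2 (-1.26) is the lowest member and TRPM8 (0.32) the highest, and larger falls are seen among less abundant genes.

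Among the kallikreins, KLK3 and KLK4 were slightly higher with CDKI-73 and KLK2 was not. KLK3 had 2974, 2865 and 3336 CPM in CDKI-73 cells, against 2787, 2518 and 2480 CPM in DMSO cells. The groups did not overlap, although the lowest CDKI-73 and the highest DMSO sample were close. The log2 fold change was 0.24 (SE 0.074, 95% CI 0.07 to 0.41, adjusted p = 0.02). It was 0.39 with TMM factors and -0.17 with the reference genes, where KLK3 was called lower (adjusted p = 0.027). KLK3 did not pass without DMSO replicate 2 (0.22) or DMSO replicate 3 (0.20, adjusted p = 0.075 for each), and the range without 1 sample was 0.17 to 0.29.

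KLK4, a protease also known from enamel maturation, had 128, 122 and 125 CPM with CDKI-73, against 108, 104 and 107 CPM with DMSO. Every CDKI-73 sample lay above every DMSO sample. Its log2 fold change was 0.23 (SE 0.0427, 95% CI 0.13 to 0.33, adjusted p = 0.0013), the call held without any 1 sample, and the value was -0.17 with the reference genes (called lower, adjusted p = 0.015). KLK2, which can activate the precursor of prostate-specific antigen, had 184, 176 and 212 CPM in CDKI-73 cells, against 242, 209 and 205 CPM in DMSO cells. The groups overlapped through CDKI-73 replicate 3, the highest of its group. The log2 fold change of -0.19 did not pass (SE 0.0872, 95% CI -0.40 to 0.01, adjusted p = 0.075), and it was -0.27 and called lower without CDKI-73 replicate 3 (adjusted p = 0.0024). Scaling moved KLK2 between -0.60 (reference genes, called lower) and 0.30 (upper quartile, called higher).

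The phosphatase, the carboxypeptidase and the channel had small rises in CPM. ACPP had 228, 227 and 214 CPM in CDKI-73 cells, against 201, 202 and 209 CPM in DMSO cells. The groups did not overlap, with a gap between the nearest samples smaller than the range within the CDKI-73 group. Its log2 fold change was 0.13 (SE 0.0443, 95% CI 0.02 to 0.23, adjusted p = 0.031), the weakest of the calls. It was lost without CDKI-73 replicate 1 (0.11, adjusted p = 0.11), CDKI-73 replicate 2 (0.11, adjusted p = 0.09), DMSO replicate 1 (0.11, adjusted p = 0.091) or DMSO replicate 2 (0.12, adjusted p = 0.1), and was -0.28 with the reference genes (called lower, adjusted p = 0.0048).

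FOLH1 reached 1435, 1449 and 1408 CPM with CDKI-73, against 1171, 1175 and 1147 CPM with DMSO. Its samples were tightly grouped and far apart between groups. This was a 22.9% rise, with a log2 fold change of 0.30 (SE 0.041, adjusted p = 2.4e-04) and a range of 0.29 to 0.31 without 1 sample. FOLH1B, a near-identical copy with which reads can be shared, was at 2.21 to 2.35 CPM with CDKI-73 and 2.48 to 2.68 CPM with DMSO, far below FOLH1. TRPM8 had 59.2, 59.2 and 58.0 CPM in CDKI-73 cells, against 47.9, 47.3 and 46.6 CPM in DMSO cells. It was the least abundant member and among the least variable. Its log2 fold change was 0.32 (SE 0.0426, adjusted p = 2.1e-04), with 0.31 to 0.33 without 1 sample. With the reference genes both values were below 0 and did not pass (FOLH1 -0.11, adjusted p = 0.12; TRPM8 -0.09, adjusted p = 0.19).

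TMPRSS2 and SLC45A3 had the deepest falls. TMPRSS2, a membrane serine protease that also primes several viral surface proteins, had 340, 322 and 299 CPM in CDKI-73 cells, against 776, 753 and 767 CPM in DMSO cells. Each CDKI-73 sample was below every DMSO sample by more than the whole range within either group. The level with CDKI-73 was 0.42 times that with DMSO, a log2 fold change of -1.26 (SE 0.0538, 95% CI -1.38 to -1.13, adjusted p = 2.2e-07). The value ran from -1.30 to -1.21 without 1 sample and from -1.66 (reference genes) to -0.76 (upper quartile) under other scalings. MX1, an interferon-induced gene that overlaps the TMPRSS2 span on the opposite strand, was at 1.44 to 1.73 CPM with CDKI-73 and 2.23 to 2.38 CPM with DMSO.

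SLC45A3 had 173, 168 and 176 CPM with CDKI-73, against 285, 271 and 279 CPM with DMSO. The samples of each group lay close together and the groups were well apart. Its level with CDKI-73 was 0.62 times that with DMSO (log2 fold change -0.69, SE 0.0424, adjusted p = 1.6e-06), with -0.71 to -0.67 without 1 sample. Scaling moved it between -1.10 (reference genes) and -0.19 (upper quartile), and it was called lower each time. Both fusion partner genes thus fell in CPM, and TMPRSS2 fell by more, with confidence intervals that did not overlap.

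The adjacent STEAP genes differed. STEAP2, which reduces iron and copper for uptake, had 1058, 1082 and 935 CPM in CDKI-73 cells, against 1283, 1387 and 1419 CPM in DMSO cells. CDKI-73 replicate 3 was the lowest of its group, and the groups did not overlap. The level was 0.75 times that with DMSO (log2 fold change -0.41, SE 0.0683, adjusted p = 7.1e-04), the call held without any 1 sample, and the value was 0.08 and did not pass with the upper quartile (adjusted p = 0.25). STEAP1, which lacks the cytosolic NADPH-binding domain of its relatives, had 343, 348 and 363 CPM with CDKI-73, against 390, 367 and 356 CPM with DMSO. Its groups overlapped through CDKI-73 replicate 3. The log2 fold change of -0.08 did not pass (SE 0.0486, 95% CI -0.19 to 0.03, adjusted p = 0.18). It turned to 0.08 with TMM factors and 0.10 with the median of gene ratios, neither past the test, to 0.42 with the upper quartile (called higher) and to -0.49 with the reference genes (called lower).

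Ratios between members within a sample do not depend on how the libraries are scaled, and 11 were compared. KLK2 over KLK3 was 0.0620, 0.0615 and 0.0637 in CDKI-73 cells, against 0.0869, 0.0829 and 0.0825 in DMSO cells. The ratio was thus lower in all 3 treated samples, CDKI-73 replicate 3 included, although KLK2 alone overlapped between groups. It was 0.74 times that with DMSO. KLK2 over KLK4 was 0.74 times as well, with 1.44, 1.45 and 1.70 in CDKI-73 cells, against 2.23, 2.02 and 1.92 in DMSO cells. KLK4 over KLK3 showed no such difference, with 0.0430, 0.0425 and 0.0375 with CDKI-73, against 0.0389, 0.0412 and 0.0430 with DMSO.

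The ratio to KLK3 was 0.36 times that with DMSO for TMPRSS2, 0.53 times for SLC45A3, 0.64 times for STEAP2 and 0.80 times for STEAP1. These ratios did not overlap between groups, whereas those of ACPP, FOLH1 and TRPM8 to KLK3 did. STEAP1 over STEAP2 was 0.324, 0.322 and 0.388 in CDKI-73 cells, against 0.304, 0.265 and 0.251 in DMSO cells, 1.26 times as high. Of the 9 ratios to KLK3, 5 did not overlap, against 69.2% of the ratios of all other tested genes to KLK3, and KLK2 over KLK4 and STEAP1 over STEAP2 did not overlap either. With 3 samples against 3, the two-sided exact permutation test cannot go below p = 0.1, which each of these 7 reached (0.157 adjusted over the 11 ratios).

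A limma fit of the ratios to KLK3 over all tested genes, added after the data were seen, found 5 of the 9 member ratios lower, against 56.3% of all genes. KLK2 had a log2 fold change of -0.43 relative to KLK3 (SE 0.072, 95% CI -0.59 to -0.27, adjusted p = 6.3e-04), and STEAP1 one of -0.31 (SE 0.0754, 95% CI -0.49 to -0.14, adjusted p = 0.0053). TMPRSS2, SLC45A3 and STEAP2 had values of -1.49, -0.93 and -0.65 (adjusted p at most 0.0018 for each). The other members did not pass, with intervals of -0.20 to 0.20 for KLK4, -0.35 to 0.13 for ACPP, -0.14 to 0.26 for FOLH1 and -0.14 to 0.29 for TRPM8.

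**Figure D4:**
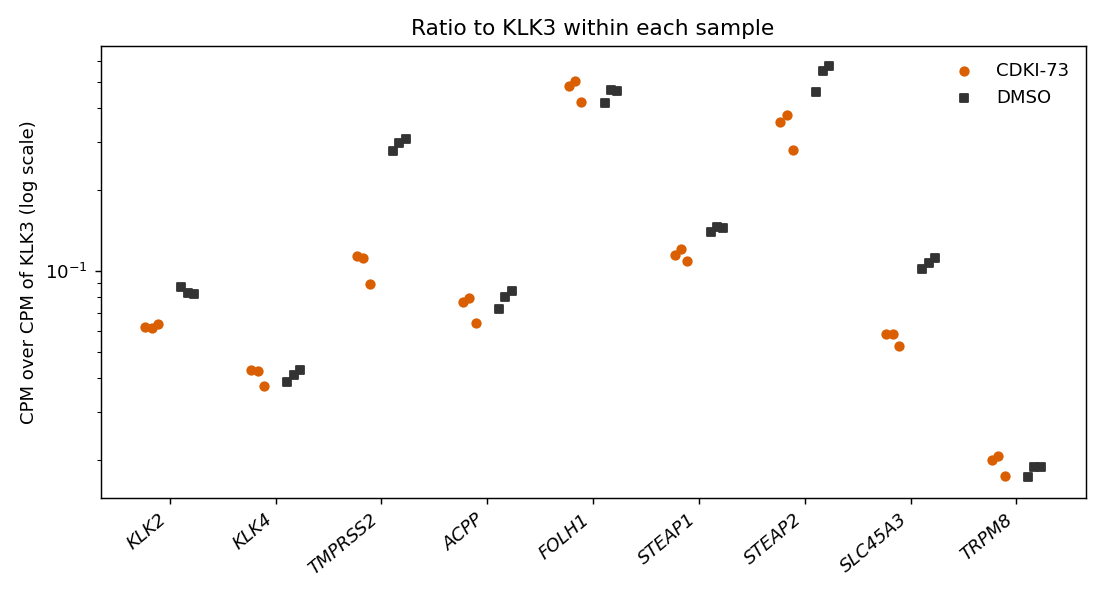
Ratio of each member's CPM to that of KLK3 in the same sample, on a log scale, with CDKI-73 (circles) left of DMSO (squares) and 3 samples per group. The ratios of KLK2, TMPRSS2, SLC45A3, STEAP1 and STEAP2 are lower in every CDKI-73 sample, and the others overlap.

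Set beside the promoter stretches shown above, KLK3 and KLK2, which share the 14 bases named there, differed from each other in response (log2 fold change of KLK2 relative to KLK3 of -0.43). TMPRSS2 (-1.26), the deepest fall, and FOLH1 (0.30) had no stretch and are missing from the CpG grouping that follows. On the CPM as deposited, KLK3, KLK4, ACPP and TRPM8 were higher with CDKI-73 among the 5 members with 1 to 3 CpG. KLK2 did not pass. Among the 3 members with 19 or 21 CpG, SLC45A3 and STEAP2 were lower and STEAP1 did not pass. These calls depended on the scaling. With the reference genes the members with a stretch were called lower except TRPM8 (-0.09), which did not pass. With the upper quartile KLK2 and STEAP1 were called higher and STEAP2 (0.08) did not pass, while SLC45A3 stayed lower. The same CpG split over all tested genes with a RefSeq stretch, at a limit of 5 CpG chosen after the values were seen, was small. The 675 genes below the limit had a median log2 fold change of -0.08, with 39.7% lower and 25.2% higher, and the 8813 others had one of -0.20, with 50.2% lower and 24.0% higher.

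Relatives and regulators of the members were read from lists chosen by function, with earlier results of these data known. Among family relatives (other kallikreins, STEAP, SLC45, TRPM, acid phosphatase, NAALAD peptidase and membrane protease genes), 20 of 45 could be tested, of which 5 were lower and 6 higher, with a median log2 fold change of -0.06. Of all genes tested, 48.2% were lower and 24.2% higher, with a median of -0.18. With the upper quartile 3 relatives were lower and 15 higher, against 3949 lower and 7311 higher of the 13373 genes. With the reference genes 14 relatives were lower and 2 higher, against 9882 lower and 395 higher of the 13373 genes. SLC45A4 (-1.32, adjusted p = 1.6e-06), the cation channel kinase TRPM7 (-1.04, adjusted p = 1.6e-05) and the metalloreductase STEAP4 (-0.96, adjusted p = 9.0e-04) fell. SLC45A2, a melanosome transporter, was at 1.15, 1.12 and 0.50 CPM with CDKI-73, against 0.38, 0.24 and 0.21 CPM with DMSO. It is 1 of the 6 higher calls, but it reached the filter through the CDKI-73 group only, so its call is no support for a difference.

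Other prostate secreted and surface genes had 3 lower and 7 higher of 13 tested, with a median of 0.22, against 48.2% lower and 24.2% higher of all genes. Of genes with a mean of at least 100 CPM, a level that SPON2 and GDF15 exceeded in every sample, 27.7% were lower and 46.7% higher. The counts were 1 lower and 11 higher with the upper quartile and 6 lower and 0 higher with the reference genes (0 also by limma before adjustment). All genes had 3949 lower and 7311 higher with the upper quartile, and 9882 lower and 395 higher with the reference genes. CLDN4, a tight junction claudin, fell to 23.1, 21.9 and 22.7 CPM in CDKI-73 cells, against 120, 95.9 and 98.8 CPM in DMSO cells (-2.21, adjusted p = 1.3e-07). GDF15, a secreted TGF-beta family cytokine, and SPON2, a secreted matrix protein, rose by 0.58 (adjusted p = 5.1e-04) and 0.46 (adjusted p = 0.0011). AZGP1, a secreted zinc-binding glycoprotein of seminal plasma, rose by 0.36 (adjusted p = 1.5e-04). Of the protease inhibitors 3 of 9 were tested and 2 were higher, against 24.2% of all genes and 46.7% of genes with a mean of at least 100 CPM. These were SPINT2 (0.40, adjusted p = 0.0044) and SPINT1 (0.22, adjusted p = 0.015), both Kunitz inhibitors of surface serine proteases. SPINT1 did not pass without DMSO replicate 2 (adjusted p = 0.064), and with the reference genes SPINT1 had -0.19 (called lower) and SPINT2 -0.01. With that scaling SPON2 (0.06), GDF15 (0.17) and AZGP1 (-0.05) did not pass.

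Of 22 other androgen-regulated genes 15 were lower and 2 higher on the CPM as deposited, with a median of -0.54, against 48.2% lower and 24.2% higher of all genes. The counts were 14 lower and 5 higher with TMM factors, 14 and 6 with the median of gene ratios, and 7 and 7 with the upper quartile. With the reference genes 21 were lower. All genes had 5517 lower and 4754 higher with TMM factors, and 5400 and 4901 with the median of gene ratios. They had 3949 and 7311 with the upper quartile, and 9882 and 395 with the reference genes. C1orf116 had 17.9, 18.7 and 18.3 CPM with CDKI-73, against 238, 247 and 260 CPM with DMSO (-3.75, adjusted p = 1.4e-08). MAF, a bZIP transcription factor, also fell (-2.37, adjusted p = 2.1e-08). PTGER4, a prostaglandin E2 receptor, had 0.21, 0.19 and 0.17 CPM with CDKI-73, against 3.46, 2.97 and 3.59 CPM with DMSO. It is 1 of the 15 lower calls and is part of the median. It reached the filter through the DMSO group only, so its call is no support for a difference. Its fitted fold depends on the pseudocount, so none is given. ZBTB10, a zinc finger factor, had 61.3, 62.8 and 52.4 CPM with CDKI-73, against 189, 192 and 194 CPM with DMSO (-1.71, adjusted p = 1.7e-07). The values of C1orf116, MAF and ZBTB10 were below that of TMPRSS2, the lowest member.

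All 10 tested lineage factor genes, coactivators among them, were lower and none higher (limma, 0 higher also at an unadjusted p under 0.05), with a median of -0.80, against 48.2% lower of all genes. With TMM factors 8 were lower, and with the upper quartile 5 were lower and 2 higher. All genes had 5517 lower and 4754 higher with TMM factors, and 3949 lower and 7311 higher with the upper quartile. With the reference genes all 10 were lower, against 9882 of the 13373 genes. GATA2 (-1.40, adjusted p = 8.3e-05), EHF (-1.15, adjusted p = 4.5e-06) and GRHL2 (-1.13, adjusted p = 6.5e-07), all epithelial or prostate transcription factors, and the nuclear receptor coactivator NCOA3 (-1.10, adjusted p = 7.0e-07) fell most. FOXA1, a pioneer factor that opens chromatin, had 279, 284 and 143 CPM with CDKI-73, against 411, 413 and 418 CPM with DMSO (-0.88, adjusted p = 0.0091; -0.56 without CDKI-73 replicate 3). HOXB13 had -0.41 (adjusted p = 3.5e-04). With the upper quartile neither passed (FOXA1 -0.38, HOXB13 0.08). These lists were scored on the same samples as the members, and no test of the difference between lists was made.

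**Figure D5:**
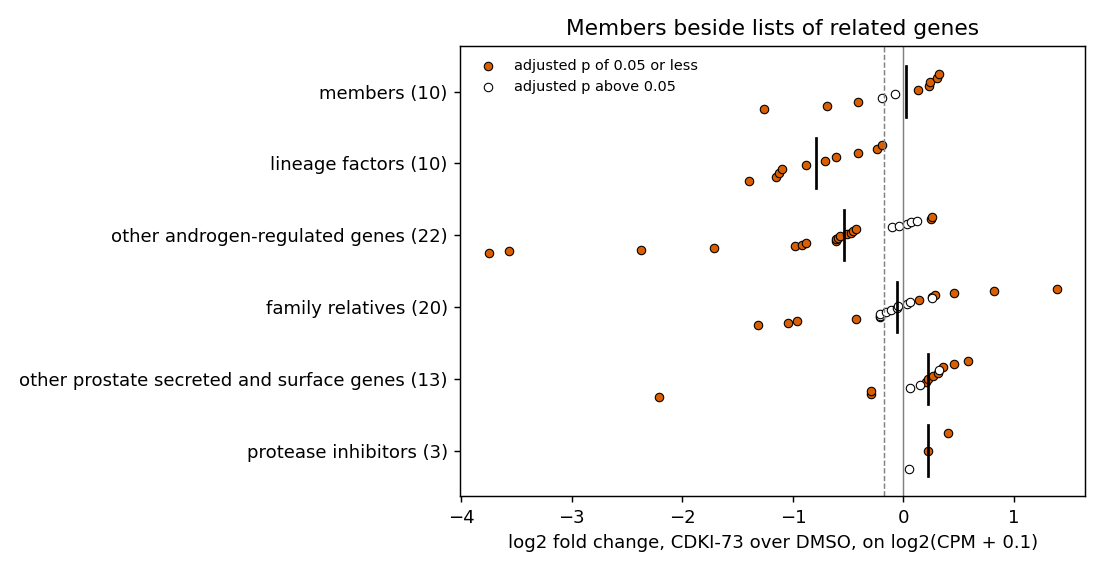
Log2 fold change of CDKI-73 over DMSO for the tested genes of the members and 5 lists of related genes, each gene a circle, filled where the adjusted p is 0.05 or less, with a bar at each list's median and a dashed line at the median of all genes (-0.18). The medians are 0.02 for the members, -0.80 for lineage factors and -0.54 for other androgen-regulated genes, on the CPM as deposited.

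At the kallikrein cluster, KLKP1 and KLK15 were also higher on the CPM as deposited, whereas KLK2 (-0.19) did not pass. With the reference genes KLK3 and KLK4 were called lower. KLKP1, a kallikrein pseudogene transcript that lies 1529 bp from KLK2 on the other strand, had 6.74, 6.63 and 7.14 CPM in CDKI-73 cells, against 3.91, 3.47 and 3.69 CPM in DMSO cells. Its log2 fold change of 0.87 (adjusted p = 2.5e-05) was larger than that of KLK3 or KLK4. KLK15, 17702 bp from KLK3, had 5.31, 4.26 and 4.12 CPM with CDKI-73, against 2.56, 2.26 and 2.80 CPM with DMSO (0.82, adjusted p = 5.5e-04). Both stayed higher under the 4 other scalings, with the reference genes at 0.47 (KLKP1) and 0.42 (KLK15). They were chosen for their position and are far less abundant than KLK3. Whether the counting used the strand is not given in the sources used, so reads of overlapping or near-identical neighbours cannot be fully told apart.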

How the data were processed

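RNA-seq of CDKI-73-treated and DMSO-treated LNCaP cells was analysed from the deposited table of CPM per gene. The submitters' processing notes name FastQC, STAR, edgeR and R and the build hg38, and the authors deposited CPM with 2 decimals, whose columns all have the same sum within rounding, so no scaling factor is in them. The annotation release and the strand setting of the counting were not stated. Depth was worked out from the smallest CPM steps (99.8 to 100.0% of the values lay within rounding of whole reads), but no count model was run.

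Genes with a mean of at least 0.5 CPM were tested with limma 3.58.1 in R 4.3.3 (trend, no block) on log2(CPM + 0.1), two-sided, with Benjamini-Hochberg adjustment over all 13373 genes. The pseudocount understates changes of low genes. Called genes have an adjusted p of 0.05 or less, and SD and SE are over n = 3 samples per group. The labels call the samples biological replicates without naming separate cultures, so p-values measure the spread between these samples. Ratios of members were tested by exact permutation. The fit was tested on simulated data. Counting error and intervals cover counting or sample spread only.

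The members and lists were chosen with earlier results of these data known. Named genes are all members, up to 4 of each list with the largest absolute change among those called, FOXA1, HOXB13 and the 3 qRT-PCR reference genes, and neighbouring loci were added by position. Alternatives changed the pseudocount, filter, scaling, trend, robustness, replicate block and samples. Gene positions come from GENCODE release 44 and promoter bases from RefSeq (GRCh38.p14), which had entries for 8 members. Some genes of the lists and markers are not reported here and were left out of every list count and sum. Sequenced reads were not used here.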

Additional observations from a re-analysis of the deposited data

How the results depend on the processing

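Pseudocounts of 0.01 and 1 CPM, no filter, a filter of 2 CPM and the robust fit changed no member's call. Scaling did. With the upper quartile KLK2 (0.30), STEAP1 (0.42) and STEAP2 (0.08) were above 0, and 3949 genes were lower and 7311 higher, against 6441 and 3242 as deposited. With the reference genes KLK3 (-0.17), KLK4 (-0.17), ACPP (-0.28), FOLH1 (-0.11) and TRPM8 (-0.09) were below 0, KLK2 (-0.60) and STEAP1 (-0.49) passed, 8 members were lower and 0 higher (0 too by limma's p before adjustment, at 0.05), and 9882 genes were lower and 395 higher. STEAP1 was at 0.08 with TMM factors and 0.10 with the median of gene ratios, where 4901 genes were higher. The lower calls made up 66.5% of all calls as deposited, 53.7% with TMM factors, 52.4% with the median of gene ratios, 35.1% with the upper quartile and 96.2% with the reference genes. The list counts moved with scaling too. The lower and higher counts of other androgen-regulated genes were 7 and 7 with the upper quartile, and those of lineage factors 5 and 2. With the reference genes the higher count was 0 for other androgen-regulated genes, other prostate genes and protease inhibitors (0 each also at an unadjusted p under 0.05), and 2 for family relatives.

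Leaving out 1 sample gave 3 to 4 members lower and 3 to 5 higher, and 6064 to 6663 genes lower and 2641 to 3408 higher. The KLK4 over KLK3 ratio, at 0.00, ran from -0.04 to 0.06 on the log2 scale, with 0.06 without CDKI-73 replicate 3 and 0.03 without DMSO replicate 3. Without the trend ACPP did not pass (adjusted p = 0.066). The deviations of same-numbered samples correlated at -0.295, 0.106 and -0.227, and not every sample correlated best with its own number. Deviations from a mean of 3 samples are tied to each other, so whether the cultures were set up in pairs cannot be told from them. With a replicate block 3 members were lower and 3 higher, with KLK3 (0.24, adjusted p = 0.053) and ACPP (0.13, adjusted p = 0.095) not passing, and 6159 genes were lower and 2776 higher. The causes of these shifts were not tested. Counting error was no smaller than the spread between samples for TRPM8, and 6 samples of 1 cell line at 1 dose and time limit what can be compared.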
